A study of Homo sapiens with 6 samples.

Results

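GC encodes the vitamin D binding protein, and 8 genes around it were examined: GC itself, the receptor genes VDR and RXRA, the enzyme genes CYP2R1, CYP27B1 and CYP24A1, and the uptake receptor genes LRP2 and CUBN. They were chosen by gene name out of 58385 gene names in the count table, and each was found once. The set was proposed with the cytokine against control results of these data known, and that is the comparison given here. The values below therefore describe these genes, and the authors' adjusted p-values are quoted as they stand in their tables.

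Poly(A) RNA of EndoC-βH1, a human pancreatic beta cell line, was sequenced in 6 libraries. In the cytokine group, 3 libraries came from cells given IL-17 at 100 ng/ml, IFN-γ at 50 ng/ml, TNF-α at 10 ng/ml and IL-1β at 5 ng/ml for 24 h. The control group of 3 libraries had none of these, and by its labels was taken ahead of exposure, whereas by the protocol it was kept without cytokines, so time in culture and cytokines cannot be told apart. Both groups had adhered for 24 h in serum-free medium with 11 mM glucose. The line is one established line, and no label names separate cultures, so the authors' p-values measure a spread among libraries that may be technical.

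Vitamin D circulates bound to the product of GC, a plasma protein of the albumin family that is made mainly in liver, also binds actin, and in human islets is known as a transcript of alpha cells. CYP2R1 in the endoplasmic reticulum makes the circulating form calcidiol, CYP27B1 in mitochondria makes the active hormone calcitriol, and CYP24A1 degrades both. Calcitriol binds VDR, a nuclear receptor that pairs with RXRA on DNA, and megalin (LRP2) with cubilin (CUBN) takes up the carrier with its vitamin from outside the cell.

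The carrier transcript had the highest level of the 8 genes, and in the authors' deposited count table cytokine cells held 4.38 times as much of it as control cells. In bulk RNA, a change in the number of cells with a transcript and a change in its level per cell cannot be told apart. Of the deposited transcripts of GC, one that starts 19962 bases before the start of the reference transcript GC-201 (MANE Select) held most of the level. This transcript, GC-204, opens its reading frame in an exon of its own and joins the frame of GC-201, so that its coding sequence has 493 codons, against 474 in GC-201, the stop codon not counted. The first 30 coding bases of each, from GENCODE release 44 (GRCh38, chromosome 4, minus strand), show where they part. The capitals mark the 21 coding bases of the extra first exon in GC-204 (start codon from 71803946 downwards) and the start codon in GC-201 (from 71784018 downwards).
GC-204: ATGCTGTGGTCTTGGAGTGAGgagagagga
GC-201: ATGaagagggtcctggtactactgcttgct

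GC (ENSG00000145321, chromosome 4, 71741696 to 71804041, minus strand, build hg38) averaged 154251 normalized counts in cytokine cells and 35201 in control cells, worked out from the mean and the fold change in the authors' deposited count table. Normalized counts are reads divided by a factor for each library's depth, which averaged 40882000 counts per library. The authors' deposited table gives the difference as a log2 fold change of 2.13 ± 0.01 (SE, 3 libraries in each group), with an adjusted p listed as 0. The deposited tables hold values per group and none per library, so the overlap of single libraries was not examined here. GC took 0.368% of the counts of tested loci in cytokine cells and 0.0884% in control cells.

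On the scale per length, FPKM (fragments per kilobase of transcript, scaled to library depth), the authors' deposited Cuffdiff table lists GC at 2207 in cytokine cells and 502 in control cells. Its deposited log2 fold change of 2.14 (q = 0.000232) lies close to that of the count table. Among 63707 loci of that deposited table, GC ranked 4 by level in cytokine cells and 94 in control cells. These ranks leave out 228 loci, the insulin locus among them, that held too much data for Cuffdiff and had a group listed at 0. In the count table GC ranked 12 of 30206 tested loci by mean, and 33 of the 696 loci with a mean of at least 10000 had a log2 fold change at least as high, GC included. Over all 30206 tested loci, the fold change of GC stood at rank 1378.

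**Figure D1:**
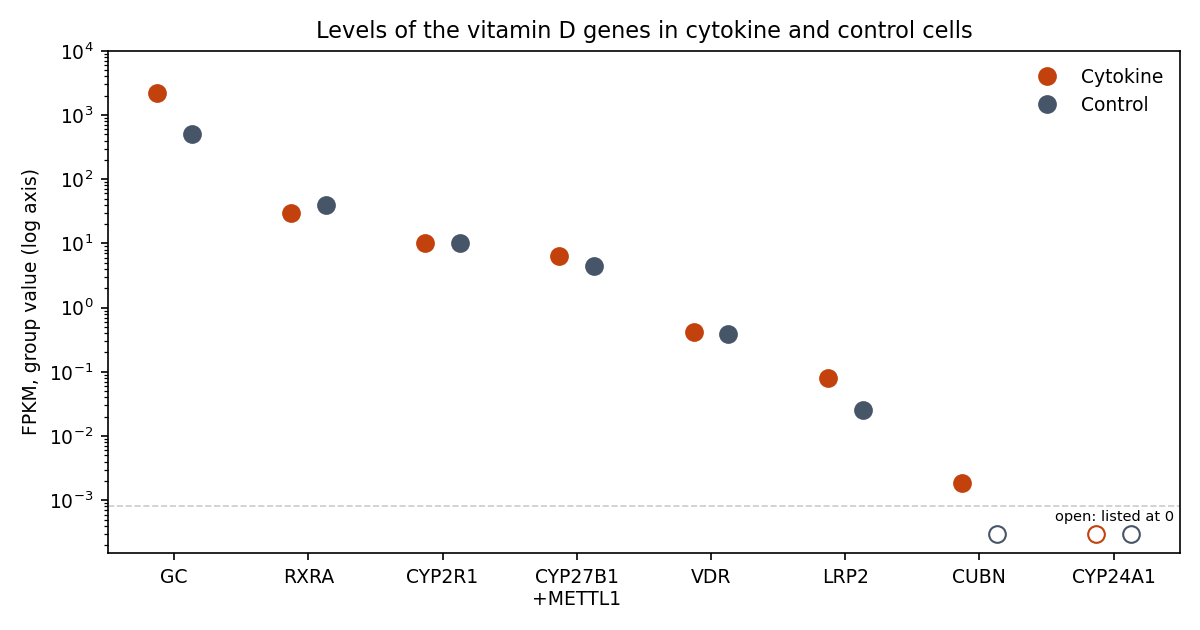
Level of each gene as the FPKM value of its group in the deposited Cuffdiff table (log axis), cytokine left and control right; open circles stand for values listed at 0. GC lies at 2207 and 502 FPKM, VDR at 0.416 and 0.384, and CYP24A1 is listed at 0 in both groups.

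GC has 8 named transcripts in the authors' deposited isoform table, and all 8 match GENCODE release 44 by identifier. GC-204 (start at 71804041) stood at 1745 FPKM in cytokine cells and 348 FPKM in control cells in the authors' deposited table (log2 change 2.33, q = 0.000833). GC-206, a short transcript that starts 1931 bases before GC-201, stood at 225 FPKM in cytokine cells and 71.5 FPKM in control cells in the deposited table (1.65, q = 0.0138). Both passed at q under 0.05. The reference transcript GC-201 stood at 106 FPKM in cytokine cells and 60.5 FPKM in control cells (0.81, q = 0.0727) in the deposited table, and did not pass. The other 5 named transcripts lay under 10 FPKM in both groups, and none of them passed. Of 3 assembled transcripts of the locus that carry no gene name, the deposited table calls 1 higher, at 76.0 FPKM in cytokine cells and 16.7 FPKM in control cells.

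As a share of the summed FPKM of the locus, GC-204 held 79.1% in cytokine cells and 69.3% in control cells. GC-201 held 4.81% in cytokine cells and 12.1% in control cells, and GC-206 held 10.2% and 14.2%. The shares were computed from the deposited group values and have no replicate error, so their difference between the groups was not tested. GC-204 and GC-201 share 1660 exonic bases, and 117 bases of GC-204 and 25 of GC-201 are their own. The split between them therefore rests on a small part of each transcript, of which the coding bases are shown above in capitals for GC-204, and its error is not in the shares.

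**Figure D2:**
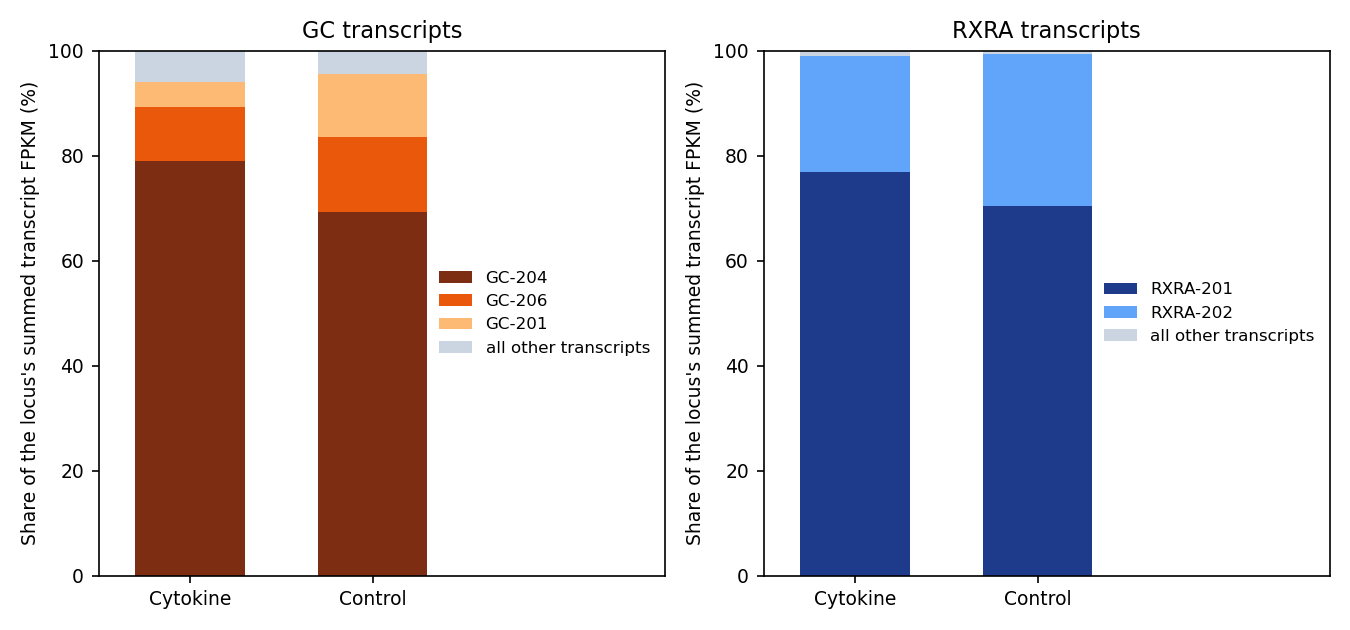
Share of the summed FPKM of all transcripts of the locus held by single transcripts of GC (left panel) and RXRA (right panel), cytokine bar left and control bar right. GC-204 holds 79.1% and 69.3% of GC, and RXRA-202 holds 22.2% and 28.9% of RXRA; the bars carry no error.

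Because GC is best known from alpha cells and liver, marker genes of both were set beside it. Of 7 alpha cell markers, the deposited count table calls 4 lower and 1 higher, IRX2, at 42.0 FPKM in cytokine cells and 33.2 FPKM in control cells. The summed level of the 7 was 1222 FPKM in cytokine cells and 1460 FPKM in control cells. That sum is mostly TTR and PCSK2, at 915 and 258 FPKM in cytokine cells and 1020 and 387 FPKM in control cells. Glucagon (GCG), which defines alpha cells, was listed at 0.101 FPKM in cytokine cells and 0.258 FPKM in control cells in the deposited table. Glucagon was thus near 0 in both groups. Of 6 hepatocyte markers, 5 stayed under 1 FPKM in both groups, with albumin (ALB) at 0.146 FPKM in cytokine cells and 0.0775 FPKM in control cells. The other was TTR, which is on both lists, at 915 FPKM in cytokine cells and 1020 FPKM in control cells. Beta cell markers were present, with PDX1 at 146 FPKM in cytokine cells and 145 FPKM in control cells. Others differed more between the groups, with MAFA at 10.6 FPKM in cytokine cells and 33.0 FPKM in control cells. The locus of IAPP, which holds 6 names, stood at 14.1 and 3.84 FPKM, and SLC2A2 was low at 0.766 and 1.04 FPKM. The 11 beta cell markers summed to 848 and 1084 FPKM without the insulin gene, whose locus is listed at 0. The deposited count table calls 2 of these 11 higher and 5 lower, and the part of that in the change of GC was not tested.

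By the 2 group means on a log2 scale, the loci of a single gene most like GC among 36705 were CALR, HSPA5 and SCG3, at distances of 0.87, 0.89 and 1.17. CALR averaged 88550 normalized counts in cytokine cells and 44746 in control cells, so even the nearest gene differed from GC in both level and change. VDR had much closer neighbours, with GGT2 (of a family with near-identical copies, so its counts are uncertain) at 0.014, and NLRC3 and C1QL3 both at 0.036. By mean counts, VDR ranked 13612 and GC 12 of 30206 tested loci, so their neighbours come from unlike parts of the range. The distances around VDR are also smaller than the SE of its own log2 fold change, 0.24. These likenesses rest on 2 means and not on single libraries.

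Of the 8 members, 6 had an adjusted p in the authors' deposited count table, CYP24A1 had no reads and CUBN had reads but no adjusted p. At an adjusted p of 0.05, 3 were higher (GC, LRP2 and the locus of CYP27B1) and 1 was lower (RXRA), beside 37.7% of all 30206 tested loci called in either direction. Of these loci, 18% were called higher and 19.7% lower. The deposited Cuffdiff table tested 5 members and called 2 higher (GC and the locus of CYP27B1) and 1 lower (RXRA), beside 35.7% of 21865 loci (17.8% higher and 17.9% lower). Of 21 tested transcripts of the members in the deposited isoform table, 2 were called higher (GC-204 and GC-206) and 2 lower (RXRA-201 and RXRA-202), beside 9.87% of 95649 tested transcripts, 5.17% higher and 4.7% lower. Because the members were chosen with this contrast known, nothing is read from their counts.

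Of the receptor genes, VDR did not pass the test and RXRA was lower. VDR (ENSG00000111424, chromosome 12, 47841537 to 47943048, minus strand), the nuclear receptor for calcitriol, averaged 74.9 normalized counts in cytokine cells and 77.5 in control cells in the authors' deposited table. Its log2 fold change was -0.05 ± 0.24 (SE), with an adjusted p of 0.915 in the deposited table and a 95% interval from -0.51 to 0.41, so changes within that range are inside its error. The deposited Cuffdiff table lists VDR at 0.416 FPKM in cytokine cells and 0.384 FPKM in control cells (q = 0.794). Its reference transcript VDR-206 held 83.8% of the locus in cytokine cells and 86.8% in control cells.

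RXRA (ENSG00000186350, chromosome 9, 134317098 to 134440585, plus strand), the partner of VDR and of other nuclear receptors, averaged 6369 normalized counts in cytokine cells and 8149 in control cells in the deposited table. The authors' deposited log2 fold change is -0.36 ± 0.03 (SE), with an adjusted p of 1.09e-42. Per length it stood at 29.7 FPKM in cytokine cells and 39.0 FPKM in control cells in the deposited Cuffdiff table (q = 0.000232), so RXRA was lower with cytokines in both tables. The reference transcript RXRA-202 stood at 6.60 FPKM in cytokine cells and 11.3 FPKM in control cells in the deposited table (-0.77, q = 0.00626). RXRA-201, which starts at 134371971, inside the gene and after the start of RXRA-202 at 134326455, and has no coding sequence defined in GENCODE, stood at 22.8 FPKM in cytokine cells and 27.4 FPKM in control cells (-0.27, q = 0.000833) in the deposited table. RXRA-202 held 22.2% of the locus in cytokine cells and 28.9% in control cells, without a test of that difference, and both transcripts share 5332 exonic bases.

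The 250 bases before the start of RXRA-202 are shown because this transcript had the larger deposited decrease of the pair. They come from RefSeq (GRCh38.p14, chr9:134326205-134326454, plus strand), and the capitals mark the 6 matches, some overlapping, to the GC box GGGCGG on either strand. The letters G and C make up 89.2% of this stretch, and the part of that composition in the number of matches was not tested.
RXRA: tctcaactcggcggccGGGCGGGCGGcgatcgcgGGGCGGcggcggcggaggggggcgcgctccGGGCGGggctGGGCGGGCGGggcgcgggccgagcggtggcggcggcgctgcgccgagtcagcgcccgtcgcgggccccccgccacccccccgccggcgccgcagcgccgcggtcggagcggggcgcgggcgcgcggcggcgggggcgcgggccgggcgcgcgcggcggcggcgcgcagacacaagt
The GC box was found in 45.0% of the 35116 promoter windows of the RefSeq table. Among the members' other windows, that of LRP2 held 3 matches, those of CYP2R1 held 2, 1 and 0, the second window of RXRA held 1 and that of CUBN held 0. Windows were held for 4 of the 8 members, RXRA, LRP2, CYP2R1 and CUBN, and GC, VDR, CYP24A1 and CYP27B1 are the others. The interferon elements GAS (TTCNNNGAA) and ISRE core, searched on both strands, had no match in any of these 7 windows, beside 7.66% and 3.57% of all windows. The nuclear receptor motif AGGTCA had 2 matches in the window of CUBN and none in those of the other 3 genes, and 13.8% of all windows held it. The NF-κB consensus matched 1 of the 3 windows of CYP2R1, beside 11.3% of all windows. A match describes letters and not a site in use.

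Of the enzymes that make calcitriol, CYP2R1 did not pass the test, and the locus that holds CYP27B1 was called higher. CYP2R1 (ENSG00000186104, chromosome 11, 14877440 to 14892231, minus strand) averaged 873 normalized counts in cytokine cells and 901 in control cells in the authors' deposited table. The log2 change from the authors' DESeq fit, as deposited, was -0.05 ± 0.06 (SE, adjusted p = 0.673), with a 95% interval from -0.17 to 0.08. It stood at 10.1 FPKM in cytokine cells and 10.2 FPKM in control cells in the deposited Cuffdiff table (q = 0.948). Its level was spread over many transcripts, and the reference transcript (MANE Select) held 8.43% in cytokine cells and 7.15% in control cells. None of its 6 tested named transcripts passed the threshold in the deposited isoform table.

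CYP27B1 (ENSG00000111012, chromosome 12, 57762334 to 57768986, minus strand) was counted as a single locus with METTL1, a gene for a tRNA methyltransferase that it overlaps on the same strand. The locus averaged 309 normalized counts in cytokine cells and 229 in control cells, with a log2 fold change of 0.43 ± 0.12 (SE, adjusted p = 0.000706) in the authors' deposited count table. The deposited Cuffdiff table lists the locus at 6.31 FPKM in cytokine cells and 4.37 FPKM in control cells (q = 0.00805). The locus value cannot be assigned to CYP27B1, whose transcripts made up 1.09 FPKM (17.2%) in cytokine cells and 0.831 FPKM (19.0%) in control cells. Transcripts of METTL1 made up 77.8% in cytokine cells and 77.1% in control cells. The reference transcript of CYP27B1 was listed at 0.253 FPKM in cytokine cells and 0.0867 FPKM in control cells, and did not pass in the deposited table (1.55, q = 0.492). The other 2 tested transcripts of CYP27B1 hold retained introns, and their deposited log2 fold changes were -0.09 and 0.07.

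CYP24A1 (ENSG00000019186, chromosome 20, 54153446 to 54173986, minus strand), the enzyme that degrades calcitriol and a known target of VDR, had 0 reads in all 6 libraries of the authors' deposited count table. A count of 0 allows up to 3 reads over the 6 libraries, or 0.0122 CPM, for counting error only. Its 6 transcripts are listed at 0 FPKM in both groups of the deposited isoform table. No change of this gene was detectable at this depth.

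The uptake receptors were scarce. LRP2 (ENSG00000081479, chromosome 2, 169127109 to 169362534, minus strand) averaged 21.7 normalized counts in cytokine cells and 7.05 in control cells, a log2 fold change of 1.62 ± 0.53 (SE, adjusted p = 0.00699) in the authors' deposited count table. Its 95% interval ran from 0.58 to 2.66, the widest of the called members. Per length this is 0.0790 FPKM in cytokine cells and 0.0251 FPKM in control cells, and the deposited Cuffdiff table holds LRP2 too low to test. Of that level, 58.7% in cytokine cells and 63.0% in control cells, or 0.0464 FPKM in cytokine cells and 0.0158 FPKM in control cells, was given to a transcript of LRP2 with a retained intron. The assembled locus also runs 163728 bases past the annotated gene. CUBN (ENSG00000107611, chromosome 10, 16823966 to 17129811, minus strand) averaged 1.18 normalized counts over the 6 libraries in the deposited count table, had no adjusted p, and was listed at 0.00186 FPKM in cytokine cells and 0 FPKM in control cells.

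**Figure D3:**
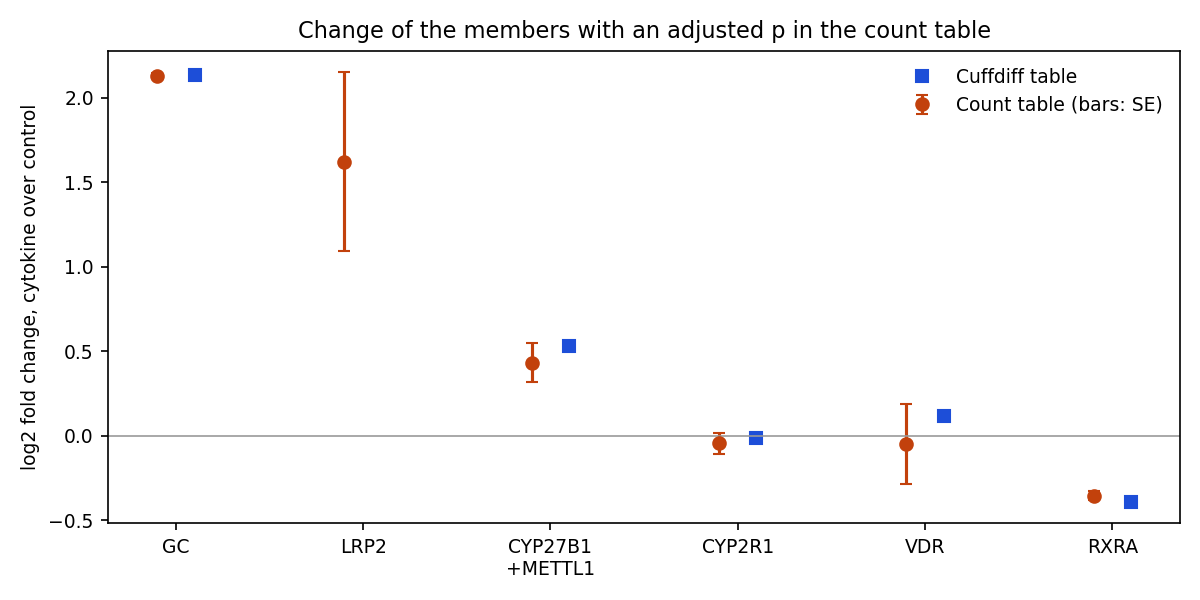
Log2 fold change of cytokine over control for the 6 members with an adjusted p, from the deposited count table (circles, bars show the SE of 3 libraries in each group) and the deposited Cuffdiff table (squares; LRP2 was not tested there). GC stands at 2.13 and RXRA at -0.36, while the bars of VDR and CYP2R1 include 0.

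In order of level per length in cytokine cells, GC at 2207 FPKM stood above RXRA at 29.7, CYP2R1 at 10.1, the locus of CYP27B1 at 6.31, VDR at 0.416, LRP2 at 0.0790 and CUBN at 0.00186 FPKM in the deposited Cuffdiff table. The order was the same in control cells. The FPKM values carry no error in the deposited table, so whether neighbours in this order differ beyond their spread was not examined here.

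Wider lists of the pathway were counted to show the surroundings of these genes. Of 8 tested genes for vitamin D synthesis and electron supply to its enzymes, the deposited count table calls 0 higher and 3 lower, beside 18% higher and 19.7% lower of all tested loci, and a median log2 fold change of -0.08 stands beside 0.05 for all tested loci. POR, which passes electrons to microsomal P450 enzymes such as CYP2R1 and was counted with the microRNA gene MIR4651, fell by 0.52 ± 0.03 (log2, SE) in the deposited count table. FDXR, which starts the electron chain of mitochondrial P450 enzymes, fell by 0.36 ± 0.12 in the deposited count table but had q = 0.730 in the deposited Cuffdiff table. DHCR7, which turns the vitamin D precursor into cholesterol and was the most abundant of the list, fell by 0.20 ± 0.03 in the deposited table. The mitochondrial hydroxylase CYP27A1 did not pass, at -0.02 ± 0.07 in the deposited table.

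Among 11 tested carrier and endocytosis partners, the deposited count table calls 0 higher and 7 lower, with a median of -0.24, where 18% of all 30206 tested loci were called higher and 19.7% lower, with a median of 0.05. Most of these partners were abundant, and loci with a mean of at least 1000 had a median of -0.056. After centring on such loci, 5 of the 11 partners and 5142 of all 30206 tested loci were called lower. The deposited Cuffdiff table called 3 of 9 lower and 0 higher. CLCN5, an endosomal chloride transporter needed for megalin uptake, fell by 0.24 ± 0.04 (SE) in the deposited count table. GSN (gelsolin), which scavenges actin together with the GC protein, fell by 0.25 ± 0.05 in the deposited count table and had q = 0.267 in the deposited Cuffdiff table. LRPAP1, the chaperone of megalin and the most abundant of the list, stood at -0.11 ± 0.03 in the deposited count table and at 0.05 in the deposited Cuffdiff table (q = 0.672), and the endocytic receptor LRP1 also turned sign, at -0.09 and 0.10. AMN, the partner of cubilin, is listed at 84.7 FPKM in cytokine cells and 89.0 FPKM in control cells as a locus with a clone-named gene, while CUBN itself was near 0. The albumin family genes ALB, AFP and AFM, related to GC, averaged 3.71, 1.95 and 18.8 normalized counts and did not pass in the deposited table.

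Of 14 tested receptor partners and coregulators, the deposited count table calls 2 higher and 5 lower (all tested loci, 18% and 19.7%), with a median of -0.04. NCOA3, a coactivator of nuclear receptors counted with a clone-named gene, rose by 1.38 ± 0.04 (SE), and PDIA3, an oxidoreductase of the endoplasmic reticulum also described as a membrane binding protein for calcitriol, rose by 1.17 ± 0.02 in the deposited table. RXRG, the third RXR gene, fell by 1.02 ± 0.06 in the deposited table, at 7.92 FPKM in cytokine cells and 15.3 FPKM in control cells. RXRB did not pass, at -0.03 ± 0.04 in the deposited table. The calls of MED1, BAZ1B and SMARCA4 in the count table had q of 0.178, 0.269 and 0.263 in the deposited Cuffdiff table.

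Of 14 tested nuclear receptors that pair with RXR, the deposited count table calls 3 higher and 4 lower (all tested loci, 18% and 19.7%), with a median of -0.0046. RARG, a retinoic acid receptor, rose by 1.77 ± 0.17 (SE) in the deposited table. PPARD, a fatty acid receptor, and THRA, a thyroid hormone receptor and the most abundant of the list, fell by 0.49 ± 0.06 and 0.47 ± 0.05 in the deposited table.

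Of 18 tested known targets of VDR, the deposited count table calls 6 higher and 6 lower, with a median of -0.19, beside the same 18% and 19.7% of all tested loci. A further 6 targets had no adjusted p, 3 of them (CAMP, FGF23 and PTH) without a read. IGFBP3, a carrier of insulin-like growth factors, the cell cycle inhibitor CDKN1A and TNFSF11, which encodes the cytokine RANKL, rose by 3.41 ± 0.09, 2.70 ± 0.09 and 2.16 ± 0.28 (SE) in the deposited table. The others called higher, named after their values were seen, were DUSP10 and CALB1, the gene of a calcium-binding protein, at 1.73 ± 0.07 and 1.13 ± 0.24, and KL (klotho), at 7.28 FPKM in cytokine cells and 2.43 FPKM in control cells in the deposited tables. Those called lower, named likewise, were GADD45A, FBP1, ATP2B1, TXNIP and the loci of BGLAP and CLDN12, the last being the most abundant and holding 5 names, at -0.22 ± 0.02 in the deposited table. The locus of BGLAP holds 4 names, so the calls of both loci cannot be assigned to BGLAP and CLDN12. Over loci of 1 gene name, 6 targets were called higher and 4 lower. These genes also answer to other signals, and the part of VDR in their changes was not tested.

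**Figure D4:**
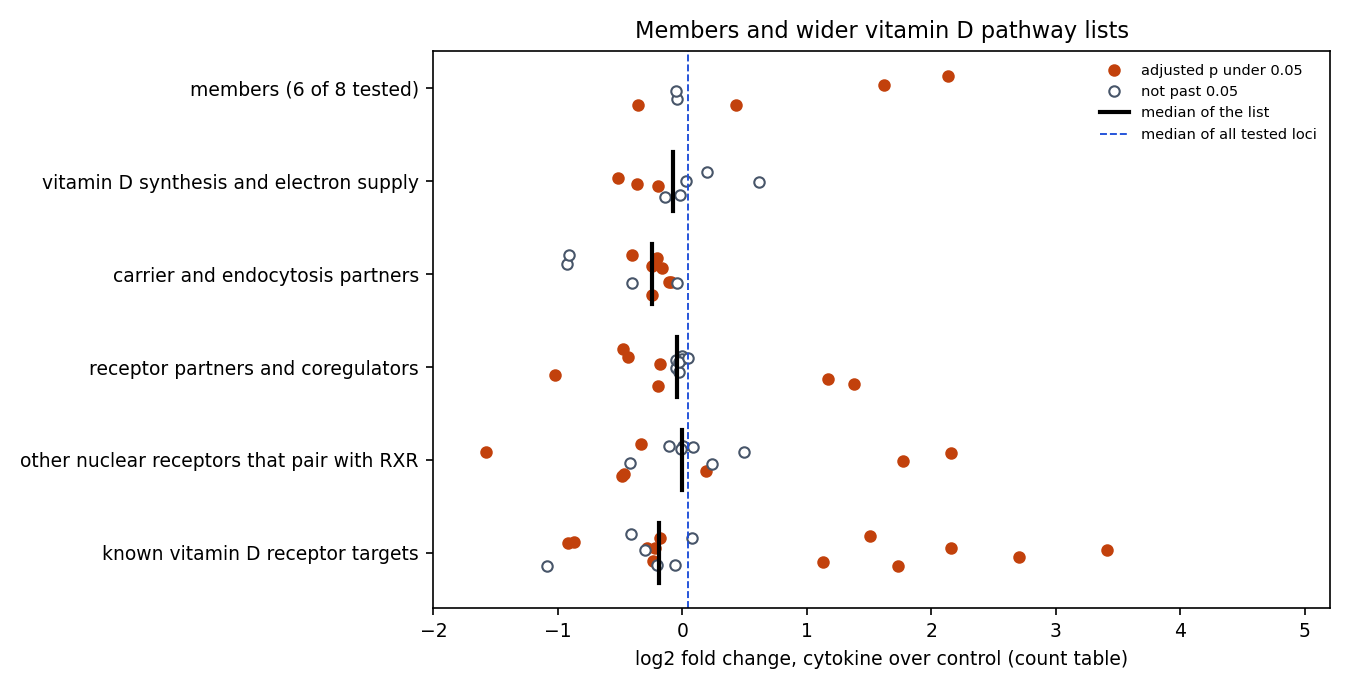
Log2 fold change of cytokine over control in the deposited count table for the 6 members tested and the tested genes of 5 wider lists (rows); filled circles have an adjusted p under 0.05, black bars are list medians and the dashed line is the median of all tested loci, 0.05. The tested carrier and endocytosis partners lie below 0 in this table, and the VDR targets spread from -1.09 to 3.41.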

How the data were processed

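The deposited tables hold 1 comparison, cytokine against control, and no values per library. Per the submitters' processing notes, the tools were DESeq and Cuffdiff 2.2.1 for the comparisons, STAR 2.5.2b as aligner, StringTie for assembly, and FastQC 0.10.1 with bcl2fastq ahead of them, on build hg38. The counter, strand setting and annotation were not given in the sources used here. Deposited by the authors as signal is the mean normalized count over 6 libraries, per the file headers. The log2 values are fold changes and their SE in the authors' deposited tables, per the file headers. The score is the authors' deposited statistic, which in the count tables equals fold change (log2) over SE. The p-values, adjusted p-values and q-values are those of the authors' tests as deposited. FPKM is given per group in the authors' deposited Cuffdiff tables, whose smallest p-value was 5e-05.

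Computed here (scipy 1.17.1, numpy 2.4.6 and pandas 2.3.3 in Python 3.11.15, figures in matplotlib 3.10.9) were group means (from the deposited mean and fold change), 95% intervals (normal approximation from the deposited SE), transcript shares, ranks and Benjamini-Hochberg adjustments, which were tested on simulated data. Over the 30206 loci, the recomputed and the deposited adjusted p differed by at most 1.53e-15. Loci without a gene name (5827 of 61695) held 1.34% of counts. Loci matched the members by symbol. The members and lists were chosen with earlier results of these data known. From each list, the 3 largest changes among called loci with a mean of at least 50 and the most abundant locus were named, except that some genes are not reported here. Of 51 named member transcripts, 50 matched GENCODE release 44 by identifier without version. Coordinates are 1-based.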

Additional observations from a re-analysis of the deposited data

How the results depend on the processing

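No paired analysis was possible because the tables give group comparisons and no values per library, and for the same reason leaving out single libraries was not run. Of 113 values recomputed under the alternatives, 101 kept their direction and side of the threshold, or stayed within 1.5 times for a count. That total says little by itself, since a changed threshold or low-count filter leaves each fold change as it is by construction. All 20 values under each of those settings were kept. With the Cuffdiff gene table, 12 values were kept, 6 counts moved beyond 1.5 times and 1 direction turned. GC stayed called at 2.13 to 2.19 under each alternative, and RXRA, LRP2 and the locus of CYP27B1 stayed called wherever they were tested. The sign of VDR turned to 0.12 in the Cuffdiff table and to 0.0064 after centring on loci with a mean of at least 1000, and that of CYP2R1 turned to 0.010 after centring, none of them called. The Cuffdiff table tested fewer loci, and 3911 of 21865 (17.9%) were called lower, beside 5946 of 30206 (19.7%) in the count table. There the lists gave 1 of 6 higher for synthesis, 3 of 9 lower for carrier partners and 2 of 14 lower for receptor partners. Of 11 other nuclear receptors tested there, 1 was higher and 2 were lower. Centring gave 1 higher for synthesis. Receptor partners had 1 called higher over loci of 1 gene name, which leaves out NCOA3. At q under 0.01, 1 member transcript was called higher in place of 2, since GC-206 dropped out. Except where the construction shows it, the cause was not tested. Low counts limit LRP2, CUBN and CYP24A1.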

Other observations

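Genes best known from liver did not share one direction with GC. SERPINA1, which encodes the protease inhibitor alpha-1 antitrypsin, and FGB, the fibrinogen beta chain, both proteins of the acute phase, were called higher in the authors' deposited count table, at 1.37 ± 0.34 and 2.41 ± 0.47 (log2 ± SE). Both stayed low, with FGB at 0.540 FPKM in cytokine cells and 0.131 FPKM in control cells and SERPINA1 at 0.736 and 0.333 FPKM in the deposited Cuffdiff table. TTR, the plasma carrier of thyroid hormone, was called lower at -0.18 ± 0.02 in the deposited count table, at 915 FPKM in cytokine cells and 1020 FPKM in control cells (q = 0.0589 in the deposited Cuffdiff table). ALB, APOA1 and APOH did not pass the threshold, and all 3 stayed under 1 FPKM in both groups.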
